A study of Homo sapiens with 12 samples.

Results

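The genes described here are the transcription factor ATF4, genes known as its targets, and other genes of the integrated stress response, in human induced neurons. They were taken from a list of 40 gene symbols by the gene name that the authors' table of translational efficiency gives each transcript. By that rule 38 of the 40 were found, each as 1 transcript, among 19972 transcripts counted and 10872 with a name. MTHFD2 and SLC7A11 had no transcript under these names and were not analysed here. H1, an established line of human embryonic stem cells, was the source of the neurons, which overexpressed the neurogenic factor Ngn2 and were harvested at day in vitro 14. One genotype was wild type at LLPH (LLPH wt/wt) and the other was homozygous for an allele called Nterm (LLPH Nterm/Nterm). The labels give neither what that allele changes nor whether each genotype is 1 clone. From day 5 both genotypes were kept in 4 µM cytosine arabinoside, a drug that kills dividing cells, with 2 µg/mL doxycycline, and neither received glia. All cells were detached and lysed in 100 µg/mL cycloheximide, an inhibitor of translation elongation that holds ribosomes on the mRNA. Each genotype had 3 RNA-seq libraries, which measure mRNA levels, and 3 Ribo-seq libraries, which count footprints, the stretches of mRNA that ribosomes protect. The genotype tag of the 6 Ribo-seq samples names the opposite genotype to their titles. Column headers of the deposited counts name the genotypes wt and Nterm as the titles do. Every direction given for footprints between genotypes rests on the titles and these headers.

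In the integrated stress response, kinases that sense amino acid shortage, haem shortage, double-stranded RNA or misfolded protein phosphorylate the initiation factor eIF2. This lowers protein synthesis in general. A few mRNAs with upstream open reading frames (short reading frames ahead of the main coding sequence) are then translated better, among them ATF4, ATF5, DDIT3, PPP1R15A and PPP1R15B. In unstressed cells the upstream reading frames keep many ribosomes from the main one. ATF4 protein pairs with C/EBP factors and raises genes for amino acid synthesis, amino acid uptake and tRNA charging, together with regulators that restrain the response. PPP1R15A and PPP1R15B bring a phosphatase to eIF2 and end it.

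A short DNA element that ATF4 and C/EBP factors bind together was searched in the promoters of these genes, since it is what ties many of them to ATF4. The promoters were RefSeq's windows of 300 bases on GRCh38.p14, from 250 bases before to 50 after a transcription start, and 29 of the 38 genes had an entry. The letters searched were TGATGNAA, with its reverse complement TTNCATCA, so both strands were covered. A match stood in 9 of the 29 genes (31%), against 1217 of 27305 genes in the table (4.46%). By promoter it stood in 9 of 47, against 1270 of 35116 (3.62%), and a gene with more promoters has more chances of a match. The list holds known targets of ATF4, so these shares are a description and not a test. The palindrome TGACGTCA, the cAMP response element of CREB and ATF factors, was found in 1 of the 29 genes (3.45%) against 2.25% of all genes. No promoter of the 29 genes held both. The stretches around the matches are shown because 4 of them belong to genes whose RNA was higher in Nterm/Nterm neurons and the others to genes without such a call. They run 5′ to 3′ on the gene's strand, and capitals mark the match.
ASNS, chr7:97872449-97872496, minus strand: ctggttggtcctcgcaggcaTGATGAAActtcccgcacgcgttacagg
CHAC1, chr15:40953242-40953289, plus strand: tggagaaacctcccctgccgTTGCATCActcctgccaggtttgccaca
SLC7A1, chr13:29595669-29595686, minus strand: actgcTGATGAAAcctgg
SLC1A4, chr2:64989387-64989404, plus strand: cccgtTTGCATCAtctcc
SLC3A2, chr11:62881731-62881748, plus strand: actccTTACATCAgctcc
SLC1A5, chr19:46784884-46784931, minus strand: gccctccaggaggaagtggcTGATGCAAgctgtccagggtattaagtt
CEBPG, chr19:33374051-33374098, plus strand: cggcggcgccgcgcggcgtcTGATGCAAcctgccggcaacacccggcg
JDP2, chr14:75427986-75428021, plus strand: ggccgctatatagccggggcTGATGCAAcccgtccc
PPP1R15B, chr1:204412017-204412064, minus strand: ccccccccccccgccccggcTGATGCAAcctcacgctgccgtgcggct
PPP1R15A (cAMP response element), chr19:48872343-48872390, plus strand: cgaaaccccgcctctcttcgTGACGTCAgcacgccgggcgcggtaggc

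ASNS, CEBPG and SLC1A4 had 2 RefSeq windows each and JDP2, SLC3A2 and SLC1A5 had 3, at alternative starts. Not every window of these genes held the match, and windows were not tied to the transcript counted. Positions are given from the start of the window with the match. The element lay upstream of that start in ASNS (68 to 61 bases before it), CEBPG (42 to 35), JDP2 (16 to 9), SLC1A5 (97 to 90), CHAC1 (209 to 202) and PPP1R15B (227 to 220). In SLC1A4 it ran into the first transcribed base, and in SLC7A1 and SLC3A2 it lay within the transcribed part, at bases 8 to 15 and 38 to 45. ASNS and SLC7A1 carried the same 8 letters, TGATGAAA. CEBPG, JDP2, SLC1A5 and PPP1R15B carried TGATGCAA, and CHAC1 and SLC1A4 its reverse complement. A match is a description of these windows, and binding of ATF4 was not measured.

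**Figure D1:**
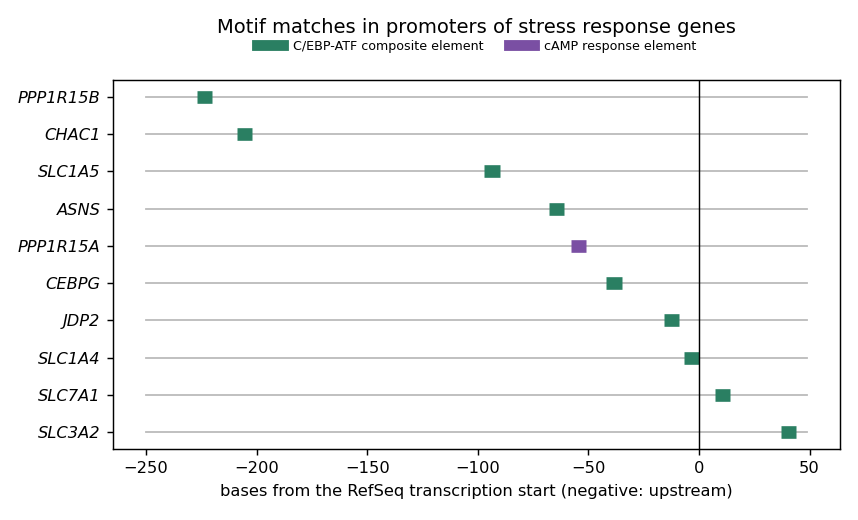
Position of each motif match (boxes) in the 300-base RefSeq promoter windows (lines) of 10 stress response genes, in bases from the transcription start of that window at the vertical line. The composite element (green) sits on either side of the start, from 227 bases before it in PPP1R15B to transcribed base 45 in SLC3A2.

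Depth ranged from 18944427 to 25089790 counts per RNA library and from 12652833 to 16356419 per footprint library. All 38 genes passed edgeR's low-count filter (filterByExpr) in every comparison. LLPH, which the genotypes name, had fewer footprints in Nterm/Nterm (log2 change -1.60 ± 0.19 SE, adjusted p = 1.77e-05) without a called change in RNA (0.14 ± 0.06, adjusted p = 0.135), and its altered part is not known, so it checks the titles only in part. Each of the 14 neuronal markers was present, with a summed RNA level of 15200 to 16300 CPM (counts scaled to library size) in wt/wt and 17500 to 18900 CPM in Nterm/Nterm libraries. Of 16 mesenchymal markers 9 had a transcript with that name, and their sum was 5140 to 6270 CPM in wt/wt and 3530 to 4580 CPM in Nterm/Nterm. The sum of 8 of 12 progenitor markers was 1180 to 1270 CPM against 921 to 1070 CPM, and that of 8 of 12 markers of dividing cells was 245 to 274 CPM against 176 to 210 CPM. Markers without a named transcript, among them PAX6, MKI67 and GFAP, were not analysed here. In such bulk libraries fewer cells of a type and less RNA per cell cannot be told apart.

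The question for wild type neurons was how many footprints these mRNAs carried for the RNA they had. The mRNAs known for upstream open reading frames carried few, and most enzymes of amino acid synthesis carried many. Efficiency is given as the fitted log2 ratio of footprints to RNA, scaled so that a typical transcript is near 0. The median over 13422 transcripts was 0.03 in wt/wt. With this scale 40.9% of all transcripts were called higher and 39.2% lower (edgeR's quasi-likelihood test, Benjamini-Hochberg adjusted p under 0.05), so a call by itself is common. Of the 38 genes, 17 were called higher and 15 lower in wt/wt, with a median of 0.13. Scaling by library totals alone raised the median of all transcripts to 0.220 and that of the 38 genes to 0.32, so values are read relative to other transcripts. The labels do not say which part of each transcript was counted, so footprints on upstream reading frames may be among the counts. RNA reads from untranslated parts may be counted too, so efficiency can also depend on how much of an mRNA is untranslated. That share was not examined here.

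ATF4, the central transcription factor of the response, had 350, 341 and 332 CPM of RNA in the wt/wt libraries. Its footprints were 136, 138 and 125 CPM in the same genotype. Footprints were below RNA in each of the 3 libraries, and neither set overlapped the other. The fitted efficiency of ATF4 was -1.54 ± 0.07 (SE, adjusted p = 1.07e-15), at percentile 7.43 of all transcripts. In Nterm/Nterm its RNA was 374, 356 and 363 CPM and its footprints 163, 158 and 133 CPM, an efficiency of -1.49 ± 0.07. The authors' deposited table gives ATF4 a mean footprint to RNA ratio of 0.376 with an SD of 0.0155 in wt/wt and 0.397 with an SD of 0.0397 in Nterm/Nterm.

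PPP1R15A, the stress-induced partner of the eIF2 phosphatase, stood lower still and was the least efficient of the 38. It had 118, 114 and 117 CPM of RNA and 38.2, 41.5 and 48.6 CPM of footprints in wt/wt. In Nterm/Nterm it had 122, 113 and 113 CPM of RNA and 45.4, 43.8 and 46.8 CPM of footprints. Footprint values lay far under RNA values in both genotypes. The efficiency was -1.63 ± 0.07 in wt/wt (adjusted p = 6.85e-16, percentile 6.66) and -1.57 ± 0.07 in Nterm/Nterm. PPP1R15B, its constitutive counterpart, was much nearer the typical transcript. Its RNA was 78.9, 72.8 and 76.0 CPM and its footprints 68.5, 64.1 and 70.3 CPM in wt/wt. In Nterm/Nterm the RNA was 79.7, 75.03 and 82.9 CPM and the footprints 71.8, 73.4 and 73.8 CPM. The efficiency of PPP1R15B was -0.35 ± 0.06 in wt/wt (adjusted p = 1.32e-05, percentile 33.8) and -0.34 ± 0.06 in Nterm/Nterm. The intervals of the 2 phosphatase partners lay far apart.

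ATF5 and DDIT3 fell between those values. ATF5, a factor related to ATF4, had 19.6, 19.6 and 20.1 CPM of RNA and 10.9, 10.4 and 12.3 CPM of footprints in wt/wt. The Nterm/Nterm libraries held 21.1, 19.2 and 19.0 CPM of ATF5 RNA and 11.8, 10.7 and 10.9 CPM of footprints. Its efficiency was -1.003 ± 0.09 in wt/wt (adjusted p = 7.93e-10, percentile 15.0) and -1.05 ± 0.10 in Nterm/Nterm. DDIT3, which encodes the death-associated factor CHOP, had 26.6, 21.8 and 23.3 CPM of RNA and 14.4, 13.4 and 12.1 CPM of footprints in wt/wt. In Nterm/Nterm DDIT3 had 22.6, 23.3 and 19.5 CPM of RNA and 12.9, 11.7 and 12.4 CPM of footprints. Its efficiency was -1.03 ± 0.10 in wt/wt (adjusted p = 1.43e-09, percentile 14.4) and -1.04 ± 0.10 in Nterm/Nterm. Each of the 5 mRNAs thus had a called, low efficiency in both genotypes, and leaving out any 1 library of the genotype ended none of these 10 calls.

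**Figure D2:**
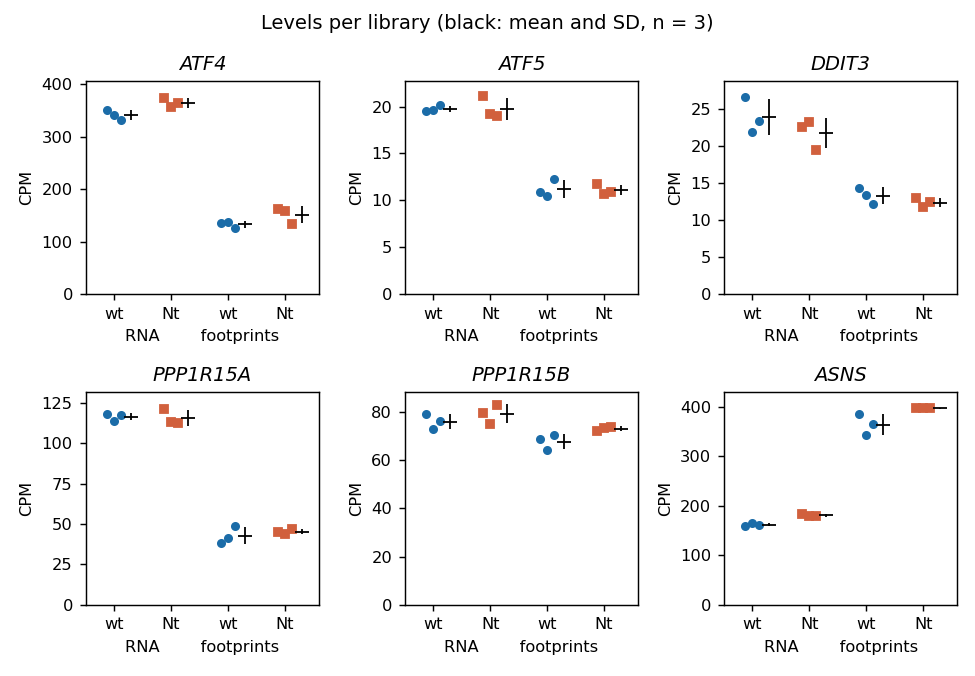
RNA and footprint levels in CPM of the 5 mRNAs known for upstream open reading frames and of ASNS, 1 point per library (wt is wt/wt, Nt is Nterm/Nterm), with mean and SD of 3 libraries in black. ATF4 falls from 332 to 350 CPM of RNA to 125 to 138 CPM of footprints in wt/wt, PPP1R15B changes little between assays, and ASNS is higher in footprints.

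Low efficiency was not restricted to those 5 mRNAs. Of the 7 transcription factors, 6 were called lower in wt/wt, and the median of the 7 was -1.003. JDP2, a repressor that pairs with ATF-family factors, was at -1.41 ± 0.13 (percentile 8.71). It rested on 15.2 to 17.5 CPM of RNA and 5.85 to 8.80 CPM of footprints. CEBPG, a partner of ATF4, was at -0.94 ± 0.06 (percentile 16.4). CEBPB was the exception among the factors, at 0.40 ± 0.09 (percentile 68.1). The sensors were lower as well: EIF2AK4, the kinase GCN2 that reads uncharged tRNA, was at -0.54 ± 0.06, and EIF2AK1, the haem-regulated kinase, at -0.33 ± 0.05. GCN1, which activates GCN2 on stalled ribosomes, was at 0.09 ± 0.06 and not called.

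VEGFA, an angiogenic growth factor induced by stress, had 20.4, 18.3 and 18.0 CPM of RNA in wt/wt. Its footprints there were 8.55, 12.4 and 9.53 CPM. It was the fourth lowest of the 38 in wt/wt, at -1.06 ± 0.13 (percentile 13.8). NUPR1, a small stress-induced nuclear protein, was at -0.64 ± 0.11, and the pseudokinase TRIB3, which binds ATF4, at -0.60 ± 0.09. Its relative TRIB1 was at 0.42 ± 0.07. Of the 7 feedback and signalling genes, 3 were called higher and 2 lower. CHAC1, an enzyme that degrades glutathione, was at 0.46 ± 0.08, EIF4EBP1, the repressor of cap binding, at 0.40 ± 0.09 and DDIT4, an inhibitor of mTORC1, at 0.13 ± 0.07.

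The enzymes stood at the other end. Of 11 genes of amino acid synthesis and metabolism, 9 were called higher and 1 lower in wt/wt, with a median of 0.58. CTH, which makes cysteine from cystathionine, was the highest of the 38. It had 3.94, 5.54 and 4.43 CPM of RNA and 13.2, 13.0 and 13.6 CPM of footprints in wt/wt. In Nterm/Nterm its RNA was 5.65, 4.57 and 5.60 CPM and its footprints 11.7, 11.4 and 14.2 CPM. The 2 assays did not overlap in either genotype. The efficiency of CTH was 1.34 ± 0.14 in wt/wt (adjusted p = 3.86e-09, percentile 97.2) and 1.02 ± 0.14 in Nterm/Nterm, the widest errors among the enzymes.

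ASNS, which makes asparagine, had 159, 165 and 160 CPM of RNA and 386, 342 and 364 CPM of footprints in wt/wt. In Nterm/Nterm it had 184, 179 and 180 CPM of RNA and 398, 396 and 396 CPM of footprints. Its efficiency was 0.99 ± 0.06 in wt/wt (adjusted p = 8.28e-14, percentile 90.9) and 0.91 ± 0.06 in Nterm/Nterm. PHGDH, the first enzyme of serine synthesis, was at 0.89 ± 0.05 (percentile 87.8), from 79.3 to 85.8 CPM of RNA and 170 to 177 CPM of footprints in wt/wt. The next enzymes of that pathway followed, PSAT1 at 0.67 ± 0.07 and PSPH at 0.45 ± 0.08. PCK2, the mitochondrial enzyme that makes phosphoenolpyruvate, was at 0.67 ± 0.09, and SHMT2, which passes a carbon from serine to folate, at 0.58 ± 0.06. For proline, ALDH18A1 was at 0.58 ± 0.05 and PYCR1 at 0.27 ± 0.07. GPT2, an alanine transaminase, was the lower one, at -0.58 ± 0.08, and CBS, which condenses serine with homocysteine, was not called at 0.05 ± 0.07.

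Transporters spread over both ends. SLC3A2 and SLC7A5 form 1 exchanger for large neutral amino acids, yet their efficiencies lay apart. SLC3A2, the heavy chain, had 209, 217 and 199 CPM of RNA and 397, 388 and 403 CPM of footprints in wt/wt, an efficiency of 0.75 ± 0.06 (percentile 83.0). SLC7A5, the light chain, had 474, 482 and 439 CPM of RNA and 249, 272 and 261 CPM of footprints, an efficiency of -1.02 ± 0.07 (percentile 14.7). So footprints were above RNA for the first and below it for the second, in both genotypes (0.79 ± 0.06 and -0.90 ± 0.07 in Nterm/Nterm). How much of each of these mRNAs is untranslated was not compared. The neutral amino acid carriers SLC1A5 at 0.56 ± 0.09, SLC38A2 at 0.40 ± 0.06 and SLC1A4 at 0.32 ± 0.07 were called higher. SLC7A1, the arginine and lysine carrier, was called lower by a small amount (-0.13 ± 0.06, adjusted p = 0.0427), and SLC6A9, a glycine transporter, was not called at 0.13 ± 0.11. SLC7A5 and PSPH have closely similar copies in the genome, as ATF4 has, and the counting of reads that match several places is not described, so these values are less certain.

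**Figure D3:**
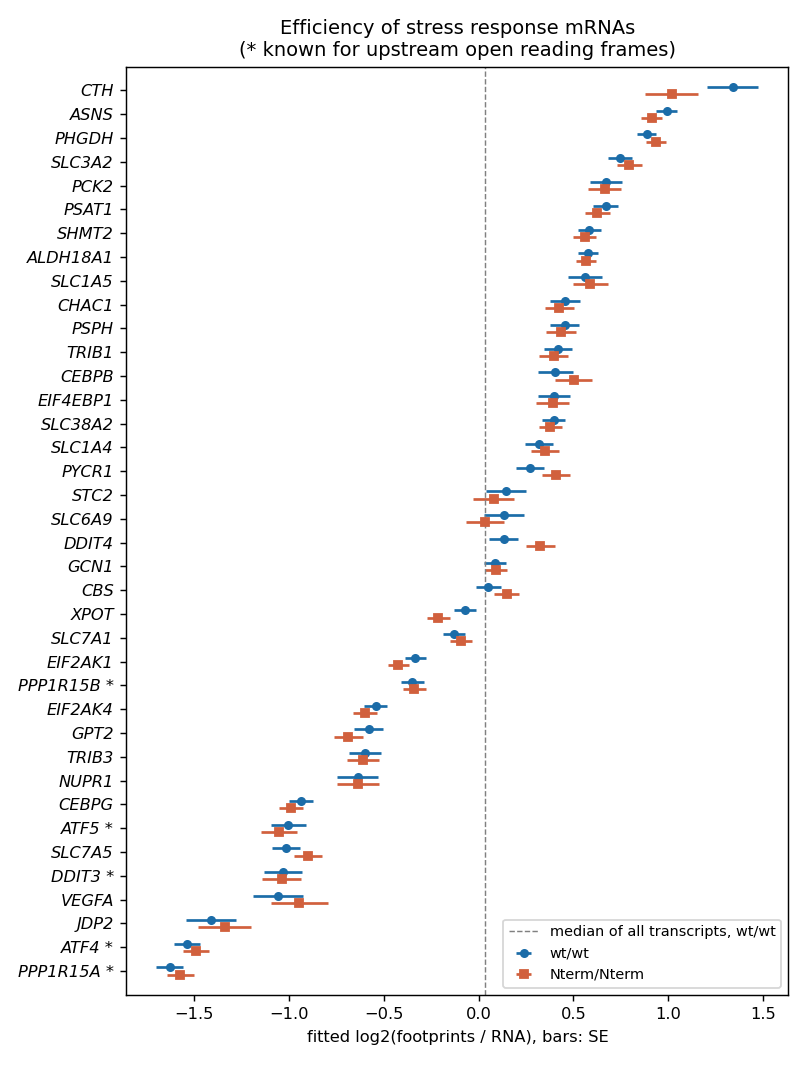
Fitted log2 efficiency (footprints relative to RNA) of the 38 genes in both genotypes with SE bars, ordered by efficiency in wt/wt, 0 being near the typical transcript. PPP1R15A, ATF4, JDP2 and VEGFA lie lowest in wt/wt, down to -1.63, and CTH, ASNS, PHGDH and SLC3A2 highest, up to 1.34. Most wt/wt and Nterm/Nterm points lie close together, while CTH is at 1.34 in wt/wt and 1.02 in Nterm/Nterm.

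The order of the efficiencies was the same at its low end in Nterm/Nterm, where PPP1R15A, ATF4 and JDP2 were again the lowest. In that genotype 19 of the 38 were called higher and 15 lower, against 38.8% and 40.2% of all transcripts. The change of efficiency between the genotypes was tested as an interaction term between genotype and assay, and no stress response gene was called. Across all 13422 transcripts 3 were called (0.0224%). Neither DESeq2 nor limma-voom called any of the 38, and 1 of them, DDIT4, had an unadjusted p under 0.05 with edgeR. The 38 changes ran from -0.28 in CTH to 0.23 in DDIT4, with a median of 0.03. For DDIT4 the change was 0.23 ± 0.11 (SE, unadjusted p = 0.049 with edgeR), and the authors' deposited table gives it mean ratios of 1.20 in wt/wt and 1.396 in Nterm/Nterm with an unadjusted p of 0.0216.

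For the mRNAs with upstream reading frames the intervals limit how large a change these libraries would have missed. The 95% interval (normal approximation from the SE) of the change in efficiency was -0.10 to 0.27 on the log2 scale for ATF4, -0.27 to 0.25 for ATF5, -0.26 to 0.32 for DDIT3, -0.10 to 0.28 for PPP1R15A and -0.11 to 0.21 for PPP1R15B. An adjusted p above the threshold does not show that the genotypes are alike within these limits. RNA and footprints of the 5 were not called between the genotypes either by edgeR, and ATF4 alone among them had an unadjusted p under 0.05, in each assay. For ATF4 the RNA means were 341 ± 9.44 and 364 ± 9.10 CPM (SD, n = 3) and the RNA values did not overlap, with a log2 change of 0.10 ± 0.04 (adjusted p = 0.121). Same-numbered RNA libraries of the genotypes varied together only weakly. With the number as a block the same change was called (0.10, adjusted p = 0.00991). The footprints of ATF4 overlapped, with means of 133 ± 6.80 and 151 ± 16.1 CPM and a change of 0.18 ± 0.08 (adjusted p = 0.119), with the third Nterm/Nterm library at 133 CPM. Without that library the change was 0.27 and was called (adjusted p = 0.0232).

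The RNA comparison asked which of these mRNAs differed in level between the genotypes. In Nterm/Nterm neurons 7 were higher and 2 lower, and amino acid transporters made up 4 of the 7. CHAC1, SLC6A9 and SLC1A4 rose most, by 0.34 to 0.52 on the log2 scale, and VEGFA and DDIT4 fell by 0.60 and 0.44. Of all 14659 transcripts tested, 17.9% were called, 7.25% higher and 10.6% lower, against 9 of the 38 (23.7%). Only named transcripts could be among the 38, and every named transcript had at least 1016 counts over all libraries. The share over all transcripts includes unnamed ones without that floor, so these shares are not like for like. For 13 of the 38 the genotypes were separate in every library, against 36.2% of all transcripts, and the median change of the 38 was -0.0038 against -0.00039 for all. With the replicate number as a block 10 were called higher and 4 lower, against 30.7% of all transcripts called in that fit.

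SLC6A9 had 9.73, 9.84 and 8.66 CPM of RNA in wt/wt and 13.0, 14.5 and 12.9 CPM in Nterm/Nterm. All Nterm/Nterm libraries were above all wt/wt libraries, and the change was 0.52 ± 0.10 (SE, adjusted p = 0.00479). SLC1A4, which carries serine, alanine and cysteine, had 72.9, 65.5 and 75.1 CPM in wt/wt and 91.4, 84.5 and 94.1 CPM in Nterm/Nterm. This was also a rise without overlap, of 0.34 ± 0.06 (adjusted p = 0.00332). SLC7A1 had 159, 161 and 164 CPM against 182, 187 and 190 CPM, a smaller rise of 0.21 ± 0.04 (adjusted p = 0.00527) over a narrow spread. SLC38A2, a carrier that cells raise when amino acids run short, had 205, 211 and 217 CPM against 220, 251 and 248 CPM, with the first Nterm/Nterm library close to wt/wt. Its change was 0.18 ± 0.05 (adjusted p = 0.0320). The other transporters of the list, SLC7A5, SLC3A2 and SLC1A5, overlapped between the genotypes, with changes of -0.03, -0.07 and -0.04 that were not called.

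CHAC1 had 17.9, 19.3 and 18.3 CPM of RNA in wt/wt and 25.2, 23.9 and 26.4 CPM in Nterm/Nterm. The gap between the genotypes was wider than the range within either, and the change was 0.45 ± 0.07 (adjusted p = 0.0020). ASNS, whose per-library values are given above, was higher in every Nterm/Nterm library, by 0.17 ± 0.04 (adjusted p = 0.0145). GPT2 had 46.1, 51.2 and 46.6 CPM against 51.7, 58.7 and 55.0 CPM, so that the highest wt/wt library almost reached the lowest Nterm/Nterm one, and its change was 0.20 ± 0.06 (adjusted p = 0.0430). Leaving out 1 library could end the calls of ASNS, GPT2 and SLC38A2, while their changes stayed at 0.15 to 0.18, 0.16 to 0.25 and 0.15 to 0.24. ASNS was not called without wt/wt library 1 or 2 or without Nterm/Nterm library 1 (adjusted p up to 0.0894), and GPT2 in 5 of 6 such fits, all but that without Nterm/Nterm library 1 (up to 0.18). SLC38A2 was not called without wt/wt library 1 or 2 or without Nterm/Nterm library 2 or 3 (up to 0.15). CHAC1, SLC6A9, SLC1A4, SLC7A1, DDIT4 and VEGFA were called in all 6 fits.

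VEGFA RNA was 20.4, 18.3 and 18.0 CPM in wt/wt and 11.4, 15.0 and 11.3 CPM in Nterm/Nterm. DDIT4 RNA was 116, 116 and 106 CPM in wt/wt and 84.3, 90.7 and 74.2 CPM in Nterm/Nterm. Neither gene overlapped between the genotypes. The RNA changes were -0.60 ± 0.11 (adjusted p = 0.00428) for VEGFA and -0.44 ± 0.07 (adjusted p = 0.00162) for DDIT4. CEBPB, at 39.2, 43.1 and 37.8 CPM against 33.2, 37.9 and 28.9 CPM, overlapped by 1 library, with a change of -0.27 ± 0.09 that was not called (adjusted p = 0.0546). With the replicate block it was called (-0.27, adjusted p = 0.000847), as were TRIB3 (0.18, adjusted p = 0.0372), PSAT1 (0.17, adjusted p = 0.00235) and ALDH18A1 (-0.11, adjusted p = 0.0459).

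Markers of other cell types moved in the same direction as VEGFA and DDIT4. Of the 9 measured mesenchymal markers 7 were called lower in RNA, of 8 progenitor markers 6 lower and 1 higher, and of 14 neuronal markers 8 higher and none lower by edgeR. With the replicate block 9 mesenchymal and 7 progenitor markers were called lower and 13 neuronal markers higher. Their median changes were -0.58, -0.39 and 0.15, and their part in the changes of the stress response genes was not tested.

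**Figure D4:**
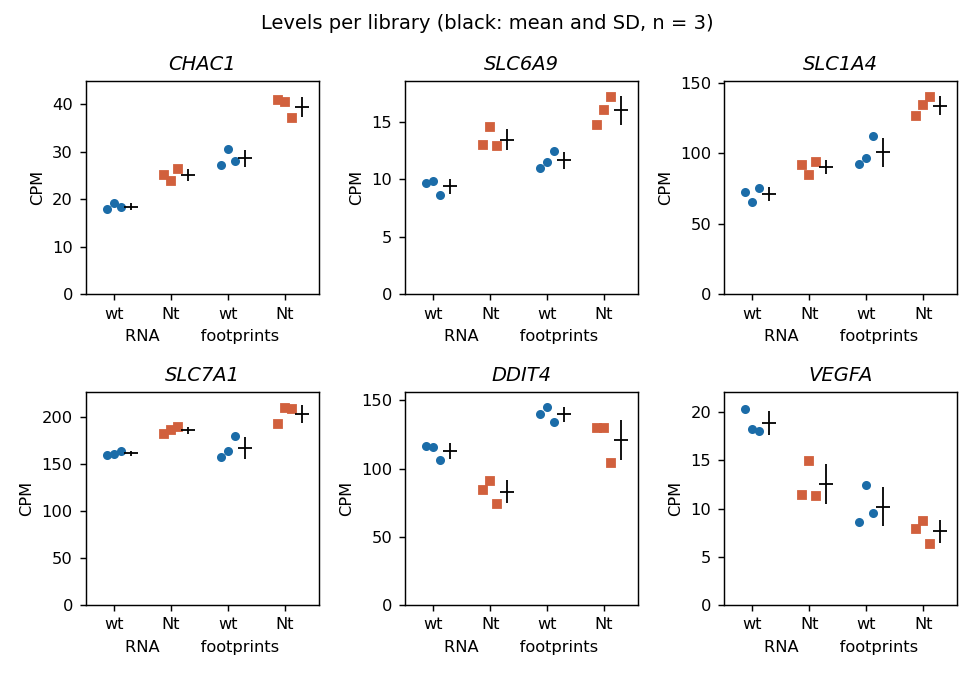
RNA and footprint levels in CPM of genes called between the genotypes, 1 point per library (wt is wt/wt, Nt is Nterm/Nterm), with mean and SD of 3 libraries in black. CHAC1, SLC6A9, SLC1A4 and SLC7A1 are higher in every Nterm/Nterm library in both assays, and VEGFA and DDIT4 are lower in RNA.

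The footprint comparison asked whether ribosome occupancy differed as well. In Nterm/Nterm neurons 5 of the 38 had more footprints and none was called lower by edgeR, DESeq2 or limma-voom, and 4 of the 5 were also higher in RNA. With edgeR 12 of the 38 had an unadjusted p under 0.05 in either direction. Of 13566 transcripts tested 13.3% were called, 4.36% higher and 8.91% lower, against 5 of the 38 (13.2%). Libraries of the genotypes were fully separate for 11 of the 38, against 30.7% of all transcripts. The median change of the 38 was 0.05 against 0.0083 for all. So the share of stress response genes called was at the level of the background. All those called in this fit were higher, but DDIT4 and VEGFA were called lower in some other fits, given below.

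CHAC1 had 27.3, 30.6 and 28.1 CPM of footprints in wt/wt and 41.0, 40.4 and 37.1 CPM in Nterm/Nterm, a change of 0.46 ± 0.08 (adjusted p = 0.00107). SLC1A4 had 92.6, 96.7 and 113 CPM against 127, 134 and 140 CPM, a change of 0.41 ± 0.08 (adjusted p = 0.00114). Neither overlapped, and in both the footprint change was within its error of the RNA change. SLC6A9 had 11.0, 11.6 and 12.5 CPM against 14.7, 16.1 and 17.2 CPM, a change of 0.46 ± 0.11 (adjusted p = 0.0100). SLC7A1 had 157, 164 and 180 CPM against 192, 210 and 208 CPM, a change of 0.29 ± 0.07 (adjusted p = 0.0094). These were also higher in every Nterm/Nterm library. The call of SLC6A9 was lost without wt/wt footprint library 1 (adjusted p = 0.0547) or Nterm/Nterm library 3 (0.0548), and that of SLC7A1 without wt/wt library 1 (0.0706).

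CBS, whose counts may be uncertain if the reference used held its near-identical copy CBSL, had 56.8, 58.2 and 56.3 CPM of footprints against 62.8, 64.9 and 71.9 CPM. It did not overlap, but the change of 0.22 ± 0.07 (adjusted p = 0.0463) kept its call in 1 of 6 fits without a library, that without Nterm/Nterm library 1 (adjusted p up to 0.26 in the others), and DESeq2 (0.0762) and limma-voom (0.0512) did not call it. SLC38A2, at 318, 302 and 323 CPM against 347, 376 and 366 CPM, was just past the other side of the threshold (0.21 ± 0.07, adjusted p = 0.0511) and was called by DESeq2 (0.0218) and limma-voom (0.0413). DDIT4 had 140, 145 and 134 CPM of footprints against 130, 130 and 104 CPM, with a change of -0.21 ± 0.08 that was not called (adjusted p = 0.0866). For VEGFA the values overlapped, at 8.55, 12.4 and 9.53 CPM against 7.85, 8.71 and 6.32 CPM, with a change of -0.44 ± 0.16 (adjusted p = 0.0710). Both were called lower with the replicate number as a block, without TMM scaling or without the count filter. ASNS and GPT2, called in RNA, were not called in footprints (0.13 ± 0.07 and 0.13 ± 0.09).

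**Figure D5:**
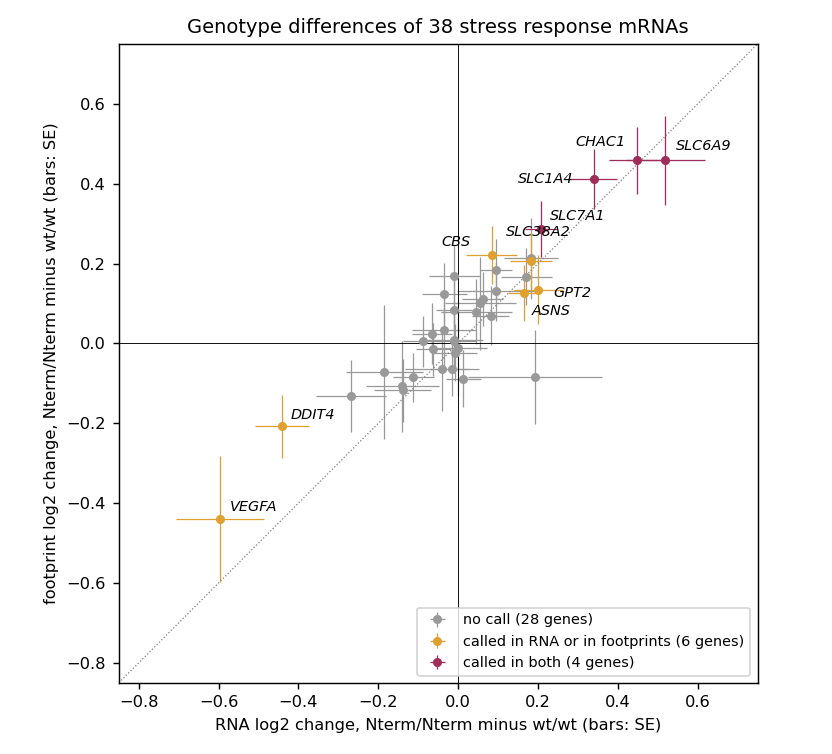
RNA change (x axis) against footprint change (y axis), Nterm/Nterm minus wt/wt in log2 units with SE bars, for the 38 genes, with equal changes on the dotted line. CHAC1, SLC6A9, SLC1A4 and SLC7A1 lie near the line at upper right, called in both assays, and VEGFA and DDIT4 at lower left, called in RNA.

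By role, transporters had 4 of 7 genes higher in RNA and 3 of 7 in footprints. Enzymes had 2 of 11 higher in RNA and 1 of 11 in footprints. Feedback and signalling genes had 1 higher and 2 lower of 7 in RNA and 1 higher in footprints. Of all transcripts 7.25% were higher and 10.6% lower in RNA, and 4.36% higher and 8.91% lower in footprints. Leaving out 1 library could end the RNA calls of SLC38A2, ASNS and GPT2 and the footprint calls of SLC6A9, SLC7A1 and CBS. The 7 transcription factors, the kinases EIF2AK1 and EIF2AK4, GCN1, both phosphatase partners and XPOT, which exports tRNA from the nucleus, had no call in RNA or footprints with edgeR without the replicate block. Of these 13 genes ATF4 and CEBPB had an unadjusted p under 0.05 in RNA and ATF4 in footprints. With the block ATF4 was called higher and CEBPB lower in RNA, and the footprints of ATF4 were called higher without Nterm/Nterm library 3. EIF2AK4 RNA was 66.8 to 71.4 CPM in wt/wt and 64.1 to 72.7 CPM in Nterm/Nterm, with a change of -0.0068 ± 0.06, and EIF2AK1 RNA was 129 to 135 CPM against 127 to 131 CPM. Over all 29 uncalled genes the RNA changes ran from -0.27 in CEBPB to 0.19 in CTH.

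The promoter element shown above was set beside the RNA calls as a count. Of the 7 genes higher in RNA 6 had a promoter entry, and 4 of these held it: ASNS, CHAC1, SLC7A1 and SLC1A4. Of the 2 lower genes 1 had an entry, DDIT4, and it held none. Of the 29 uncalled genes 22 had an entry and 5 held it, among them SLC3A2 and SLC1A5, whose RNA overlapped between the genotypes. The counts are small and no test was made of them.

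Other genes of the response and of amino acid handling were described from 9 further lists with 132 entries, of which 115 were matched. In RNA 7 of the 115 were called higher and 19 lower (22.6%), against 7.25% of all transcripts higher and 10.6% lower (17.9%). With the replicate block 22 were higher and 25 lower, without loss of a call, against 30.7% of all transcripts called in that fit. These shares, and 13.3% of all transcripts called in footprints, are the background for the counts of each list below. List genes are named transcripts of at least 1016 counts and the background has no such floor, so they are not like for like. None was called for efficiency between the genotypes with edgeR, and 5 had an unadjusted p under 0.05. The 8 matched subunits of eIF2 and eIF2B, the factor that recharges eIF2, had no call with edgeR, and an unadjusted p under 0.05 in RNA for 1 and in footprints for none. With the replicate block EIF2B5 was called higher in RNA (0.14, adjusted p = 0.0401). Of 13 other kinases and regulators that feed the response, 2 were higher and 2 lower in RNA (3 and 2 with the block). DELE1, which relays mitochondrial stress to EIF2AK1, rose by 0.21 ± 0.06 in RNA (adjusted p = 0.0386) and 0.36 ± 0.09 in footprints (adjusted p = 0.00827). DNAJC3, an inhibitor of eIF2 kinases, fell by 0.22 in RNA. The kinase PERK (EIF2AK3) was not called, with an RNA change of -0.13 ± 0.06 (adjusted p = 0.163). EIF2AK2, another eIF2 kinase, was called lower in RNA and PPP1CC higher, with and without the block. With the block these changes were -0.19 (edgeR adjusted p = 0.00242) and 0.20 (adjusted p = 0.000681).

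A further list held 18 matched genes, drawn up as other stress genes that ATF4 can induce. Whether ATF4 drives each of them in these neurons was not measured, and other factors may do so. Among them 1 was higher and 7 were lower in RNA (2 and 8 with the block), and 2 were lower in footprints. The share called was 44.4% in RNA and 11.1% in footprints, against 17.9% and 13.3% of all transcripts, which include unnamed ones without the count floor given above. TXNIP, which binds thioredoxin, fell by 0.63 in RNA (adjusted p = 0.00013) and by 0.41 in footprints (adjusted p = 0.00142). GDF15, a secreted stress hormone, fell by 0.60 (adjusted p = 0.00204) and the netrin receptor UNC5B by 0.54 (adjusted p = 0.0116) in RNA. The 1 higher gene without the block was CARS1, the cysteinyl-tRNA synthetase, at 0.16 ± 0.04 (adjusted p = 0.0212). Their median RNA change was -0.09. The markers of mesenchymal cells and progenitors given above fell alongside, and their part in these changes was not tested.

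Of 13 other amino acid transporters 3 were higher and 3 lower in RNA (5 and 3 with the block). Without the block this was 46.2% of them, against 17.9% of all transcripts. SLC7A6, a carrier of basic and neutral amino acids, rose by 0.39 ± 0.08 in RNA (adjusted p = 0.00881) and 0.45 ± 0.10 in footprints (adjusted p = 0.00375), and SLC38A1, a neuronal glutamine carrier, by 0.20 and 0.22. SLC7A2, a second arginine carrier, fell by 0.59 in RNA (adjusted p = 0.00889) and by 0.63 in footprints (adjusted p = 0.00205). So SLC7A1 and SLC7A2, which carry the same amino acids, had opposite signs. Of 10 other enzymes of serine, one-carbon and proline metabolism, 1 was higher and 2 lower in RNA and in footprints, and 3 were higher and 2 lower in RNA with the block. GOT1, which makes aspartate, rose by 0.22 in RNA, and TYMS, a thymidylate synthase of dividing cells, and GLDC, which cleaves glycine, fell by 0.52 and 0.46. The 13 other CREB, C/EBP and ATF family factors included 2 lower in RNA, CEBPD at -0.71 ± 0.11 and FOS at -0.67 ± 0.19. With the block 3 were higher and 4 lower, among them CREB1 and ATF2 higher by 0.15 and 0.18.

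Of 15 cytosolic tRNA synthetases CARS1 was called in RNA and none in footprints with edgeR, where 1 had an unadjusted p under 0.05. With the block 4 were higher in RNA, CARS1 by 0.16 and GARS1, LARS1 and TARS1 by 0.10 to 0.13. In wt/wt 14 of the 15 were called more efficient than typical, against 40.9% of all transcripts. Their median was 0.68, near that of the amino acid enzymes. Of 16 genes of the other arms of the unfolded protein response, EDEM1 (-0.27) and PDIA4 (-0.20) were lower in RNA, and 5 with the block. Of 11 mitochondrial stress genes, CHCHD10 was lower in RNA, at -0.50 ± 0.09 (adjusted p = 0.0027), and with the block 2 others, HSPA9 and AFG3L2, were higher by 0.11.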

How the data were processed

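The deposited table holds whole-number read counts per transcript in 12 libraries, which the authors left unnormalised. The authors' deposited efficiency table holds a ratio of footprints to RNA as mean and SD per genotype, and an unadjusted p-value, per the file headers. The submitters' processing notes name the build GRCh37 and, without roles, the tools Salmon 1.4.0, Bowtie2 2.3.4.3, UMI-tools 1.0.1, cutadapt 2.4, limma and edgeR. They do not say how reads that match more than 1 transcript were handled.

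Libraries were grouped by the assay and genotype of their titles. The labels do not say that replicates are separate cultures, so p-values measure the spread between these libraries, which may be technical. Replicates differed by more than sampling noise. Counts were fitted with edgeR 4.0.16 in R 4.3.3 (filterByExpr, TMM, two-sided quasi-likelihood F test). P-values were adjusted by Benjamini-Hochberg over all transcripts tested with a threshold of 0.05. RNA and footprints were fitted separately. The change in efficiency was the interaction of assay and genotype, with TMM within each assay, and efficiency within a genotype was footprints minus RNA, with TMM over all 12 libraries. The SE is the size of the log2 change divided by the square root of F. CPM values are counts scaled by library totals and TMM factors within each assay, and are not adjusted for length. The steps were tested on simulated data.

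Replicate numbers in the titles were checked for pairing. Same-numbered RNA libraries of the genotypes had correlated deviations from their group means (0.113, 0.116 and 0.246), so blocked values are given beside RNA results. Those of footprint libraries were 0.037, 0.103 and 0.229 and were not taken as pairs. Alternatives were DESeq2 1.42.0, limma-voom (limma 3.58.1), scaling by library totals, other count filters, the replicate block, the genotype tag, joint TMM and leaving out each library.

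The genes and lists were chosen with earlier results of these data known. Values in every library are given for the 5 mRNAs with upstream reading frames and for genes past the threshold, up to 15 per comparison. Values are also given for the 4 most and 4 least efficient genes, and for up to 3 called genes per further list. Some other genes are given by single values where their role is described. EIF2AK2 and list genes named for a call with the replicate block were chosen after their values were seen.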

Additional observations from a re-analysis of the deposited data

How the results depend on the processing

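The limits of these data are the 3 libraries per group, transcripts of few counts such as CTH and VEGFA, and the conflict between titles and genotype tags of the footprint libraries. With the tag in place of the title, 0 of the 38 genes were called higher and 5 lower in footprints (median -0.05), and for efficiency 4250 transcripts were called, with 4 of the 38 higher, 11 lower and a median of -0.08. With the replicate number as a block, 4504 transcripts were called in RNA (4 of the 38 lower) and 18 for efficiency. In footprints 2 of the 38 were then called lower, DDIT4 (-0.21, adjusted p = 0.0333) and VEGFA (-0.42, adjusted p = 0.0309), as 2 also were without TMM and without the count filter. The cause of these differences was not tested. Beside the calls given here and in the report, the block changed no genotype call among the 38.

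DESeq2 called 28 transcripts for efficiency and the filter at a mean of 100 counts 1, none of them among the 38, of which that filter kept 37 (without JDP2) in footprints and efficiency. Without TMM the median efficiency of the 38 was 0.32 in wt/wt and 0.31 in Nterm/Nterm. Values near 0 changed sign. The RNA change of ATF5 was 0.0013 with DESeq2 and 0.0034 without TMM. The efficiency changes without TMM and with joint TMM were -0.03 and -0.03 for CHAC1, -0.0027 and -0.01 for DDIT3, and -0.01 and -0.02 for SLC38A2. None of these was called in any of those fits.

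Leaving out 1 library gave 841 to 2851 transcripts called in RNA (841 without wt/wt library 1, 964 without wt/wt library 2, 1729 without Nterm/Nterm library 3) and 954 to 2045 in footprints. The lowest footprint counts were 954 without wt/wt library 1, 965 without Nterm/Nterm library 3 and 978 without wt/wt library 2. Of the 38, 4 to 6 were then higher in RNA (4 without wt/wt library 1 or 2) and 2 to 5 in footprints (2 without wt/wt library 1), with 0 to 1 lower (VEGFA without Nterm/Nterm library 2). The median efficiency in wt/wt was 0.07 to 0.15. Sign changes under these fits were in uncalled values, over ranges of -0.05 to 0.02 (ATF5) and -0.05 to 0.01 (PPP1R15A) in RNA, and of -0.07 to 0.06 (ATF5) and -0.001 to 0.18 (PPP1R15A) in footprints. For efficiency the ranges were -0.07 to 0.06 (ATF5), -0.05 to 0.09 (DDIT3), -0.04 to 0.06 (CHAC1) and -0.04 to 0.06 (SLC38A2).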
